A study of Mus musculus with 8 samples.

Results

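A set of 10 interferon-inducible genes of protein modification were followed in mouse cornea: Isg15, the enzymes that attach or remove its product (Uba7, Ube2l6, Herc6 and Usp18), the ADP-ribosyltransferase genes Parp9, Parp10, Parp12 and Parp14, and Dtx3l. All 10 symbols had 1 entry each among the 24918 entries of the expression table, and all 10 were expressed above the minimum for testing. They were chosen by name with their differences between the groups of these libraries already known. Their differences and counts of calls are therefore a description and support nothing. The corneaGRKO mice carried the floxed glucocorticoid receptor gene on both alleles together with 1 Cre allele (GRloxP/loxP-PAX6Cre/+). Cre was under the Pax6 P0 promoter, which aims deletion at the epithelium of the cornea. GRflox mice were littermates with the same floxed alleles and no Cre (GRloxP/loxP-PAX6+/+). Both groups were males of 3 months on a C57BL/6J/FVB background, and both gave 4 libraries, numbered 1, 3, 4 and 5, each from RNA of 4 to 6 pooled whole corneas. Whole cornea holds stroma, endothelium and resident leukocytes besides epithelium, and no group carried Cre without the floxed alleles, so a Cre effect and an effect of losing the receptor cannot be told apart. In such bulk samples, fewer cells of a type and less RNA per cell cannot be told apart either.

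ISG15 is a small ubiquitin-like protein that interferons induce and that is joined to lysines of other proteins in a cascade like that of ubiquitin. Uba7 encodes the activating enzyme (E1), Ube2l6 the conjugating enzyme (E2) and Herc6 the main ligase (E3) of mouse cells, while Usp18 encodes the protease that removes ISG15 and that also restrains signalling from the type I interferon receptor. PARP10, PARP12 and PARP14 transfer single ADP-ribose units to proteins, PARP9 carries macrodomains that read ADP-ribose, and DTX3L is a ubiquitin ligase that works as a complex with PARP9. Type I interferon acts on such genes through transcription factors, STAT2 and IRF9 among them, that act at the interferon-stimulated response element (ISRE) in their promoters.

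RefSeq promoter windows of GRCm38.p6, from 250 bases before the start of transcription to 50 after it, were at hand for 6 of the 10 genes: Isg15, Uba7, Ube2l6, Herc6, Parp12 and Dtx3l. The ISRE core (GAAA, any 2 bases, then GAAA), searched on both strands, was in 1 of these 6 windows, that of Isg15, and in 3.44% of all 32851 windows. In Isg15 the core occurred 3 times on the strand of the gene, at 78 to 69, 72 to 63 and 66 to 57 bases before the start, so that the copies overlap each other. Stat2, whose product acts at the element, held 1 core on the opposite strand at 222 to 213 bases before its start. The STAT site TTCNNNGAA (8.3% of all windows) and the glucocorticoid receptor element (GNACA, any 3 bases, then TGTNC; 0.475%) were in 0 of the 6 windows, which says only that these letters are not within them. The stretches that hold the cores are shown, with the bases of the cores in capitals, for Isg15 from chr4:156200839-156200938 (minus strand) and for Stat2 from chr10:128270248-128270347 (plus strand).
Isg15: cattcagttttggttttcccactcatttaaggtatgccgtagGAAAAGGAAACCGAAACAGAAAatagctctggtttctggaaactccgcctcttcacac
Stat2: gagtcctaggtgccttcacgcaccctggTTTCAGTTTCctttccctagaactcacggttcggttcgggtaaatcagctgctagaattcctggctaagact
The 22 capital bases of Isg15 form 1 unbroken run of purine-rich sequence. A core is a description of letters: the window of Parp11, a gene with a log2 difference of -0.01 (SE 0.0393) between the groups, also held 1 (44 to 35 bases before its start).

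The receptor gene itself was lower in corneaGRKO corneas. Nr3c1 averaged 10.75 ± 0.0963 on the log2 scale in corneaGRKO libraries and 11.22 ± 0.114 in GRflox libraries (SD, n = 4 each), a log2 difference of -0.47 (SE 0.064, limma adjusted p = 0.00767). Defining genes of the corneal epithelium were present in every library. Their summed level was 20.93 to 21.39 in corneaGRKO libraries, lowest in replicate 4, and 21.21 to 21.44 in GRflox libraries. Krt12, the main keratin of this epithelium, averaged 19.93 in corneaGRKO and 20.11 in GRflox libraries (difference -0.18, SE 0.142, limma adjusted p = 0.545). Of the 8 epithelial genes 0 passed the limma test, where 1.85% of all entries tested did. Krt14 (0.48, SE 0.17, limma adjusted p = 0.191) and Clu (0.21, SE 0.0613, adjusted p = 0.116) went the other way. In both, all corneaGRKO libraries lay above all GRflox libraries, as in 5.89% of entries tested. Krt5, Aldh3a1, Tkt, Pax6 and Klf4 had differences from -0.23 to -0.01. Library depth is not known beyond more than 40000000 reads per sample in the labels, since the table holds log2 normalized values and no counts. Libraries and marker sets also stood apart in ways that touch the results below. Retinal genes (Sag, Pde6b, Gnat1, Prph2, Rbp3 and Crx) had a summed level of 9.36 in corneaGRKO replicate 4, against 7.75 to 8.20 in the other corneaGRKO libraries and 7.65 to 7.73 in GRflox libraries. Conjunctival genes summed to 15.83 to 16.58 in corneaGRKO libraries, highest in replicate 4, against 15.29 to 15.65 in GRflox libraries. Of these genes 3 of 6 tested rose, as did 1.33% of all entries tested. Pigment cell genes summed to 10.79 to 11.15 in corneaGRKO libraries, again highest in replicate 4, against 10.58 to 10.70 in GRflox libraries, and Tyrp1 rose by 0.56 (SE 0.118, limma adjusted p = 0.0451). Of 5 stromal genes 2 fell, as did 0.52% of all entries tested. These were Kera, by 0.29 (SE 0.057, limma adjusted p = 0.0369), and Col5a1, by 0.33 (SE 0.0512, adjusted p = 0.0127). Stromal sums were 17.17 to 17.32 in corneaGRKO libraries and 17.12 to 17.30 in GRflox libraries. The part of these tissues in the differences of the 10 genes was not tested. Transcripts shorter than 1500 nt were high in corneaGRKO replicate 1 (median deviation from their group 0.09) and GRflox replicate 1 (0.064) and low in GRflox replicate 4 (-0.081).

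Levels per kb of transcript ordered the genes in GRflox corneas, the state without Cre, into 5 high and 5 lower ones. Values of different genes are compared only after division by the length of the longest coding transcript in GENCODE M21. On this log2 scale per kb, Uba7 averaged 10.04 ± 0.0395, Parp12 9.96 ± 0.0465, Parp9 9.86 ± 0.112 and Isg15 9.75 ± 0.212 (SD, n = 4). Dtx3l followed at 9.46 ± 0.104. The ranges of neighbours within these 5 met or overlapped. Farther apart in the order, Dtx3l (9.40 to 9.62) lay wholly below Parp9, Parp12 and Uba7, and Uba7 (10.01 to 10.10) wholly above Isg15 (9.47 to 9.98). All 5 stood between the 80.1 and 87.5 percentile of the 12690 tested entries with a known length. A step of 1.31 between ranges separated Dtx3l from the next gene, Parp10 (8.04 ± 0.0499). Ube2l6 (7.98 ± 0.178) and Parp14 (7.97 ± 0.119) followed, with highest values of 8.18 and 8.15. Herc6 averaged 7.69 ± 0.16 and Usp18, the lowest, 7.30 ± 0.152, at the 37.6 percentile, and these did not overlap each other. The E1 gene Uba7 thus stood above the E2 gene Ube2l6 and the E3 gene Herc6 in every GRflox library.

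**Figure D1:**
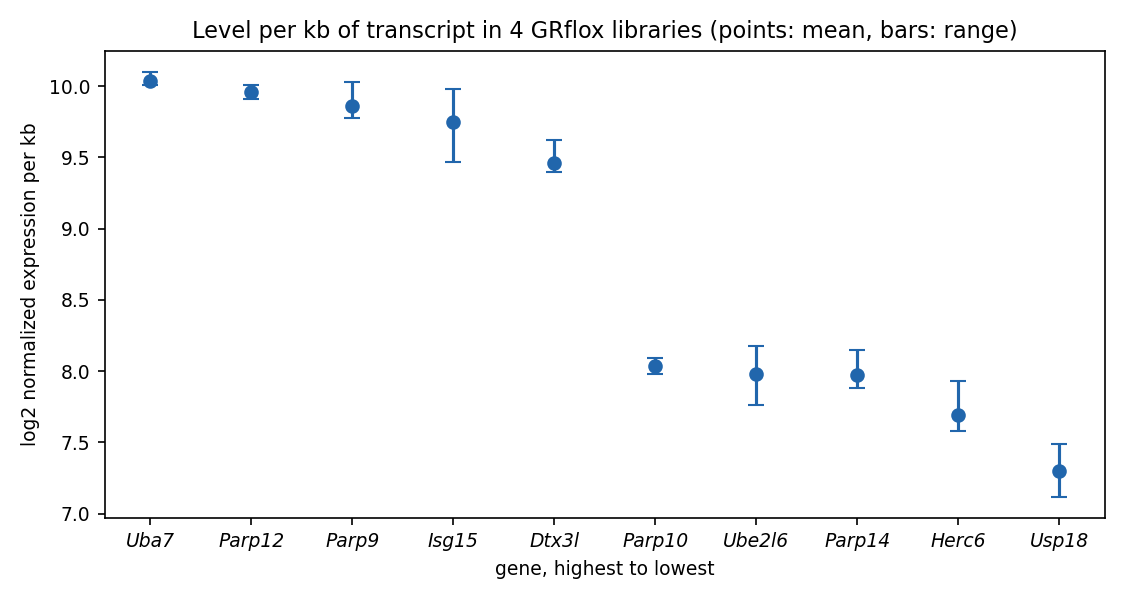
Level of the 10 genes in the 4 GRflox libraries, as log2 normalized expression per kb of transcript (y axis), ordered from highest to lowest mean; points are means and bars the range over libraries. Uba7 to Dtx3l lie at 9.46 to 10.04 and Parp10 to Usp18 at 7.30 to 8.04, with no gene between.

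Isg15 and Usp18, the modifier and its protease, had the largest differences of the 10 genes. Isg15 (Entrez gene 100038882, chromosome 4) had log2 values of 10.56, 10.20, 9.86 and 10.17 in corneaGRKO replicates 1, 3, 4 and 5, against 9.58, 9.36, 9.40 and 9.06 in the GRflox libraries of those numbers. The lowest corneaGRKO library lay 0.281 above the highest GRflox library. The difference was 0.85 (SE 0.141), or 1.80-fold on the deposited scale. Usp18 (Entrez gene 24110, chromosome 6) had 9.15, 8.86, 8.51 and 8.97 in corneaGRKO libraries, against 8.31, 8.09, 8.16 and 7.95 in GRflox libraries, without overlap. It differed by 0.74 (SE 0.123), or 1.67-fold. Replicate 1 was the highest and replicate 4 the lowest corneaGRKO library for both genes, while replicate 1 was the highest and replicate 5 the lowest GRflox library for both. The log2 ratio of Isg15 to Usp18 was 1.33 ± 0.0937 in corneaGRKO libraries and 1.22 ± 0.0701 in GRflox libraries (SD, n = 4 each), with ranges that overlapped.

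The 3 enzymes of attachment differed unequally. Herc6, the ligase gene (Entrez gene 67138, chromosome 6), had 10.43, 10.57, 10.42 and 10.50 in corneaGRKO libraries, against 9.92, 9.84, 10.18 and 9.85 in GRflox libraries. No corneaGRKO library fell within the GRflox range, which was wide because of replicate 4, and the difference was 0.53 (SE 0.0731), or 1.45-fold. Uba7, the activating enzyme gene (Entrez gene 74153, chromosome 9), had 11.84, 11.95, 11.76 and 11.81 in corneaGRKO libraries, against 11.72, 11.69, 11.77 and 11.69 in GRflox libraries. These groups met at replicate 4 of each, and the difference was 0.12 (SE 0.0447). Ube2l6, the conjugating enzyme gene (Entrez gene 56791, chromosome 2), had 9.13, 8.64, 8.63 and 8.73 in corneaGRKO libraries, against 8.83, 8.68, 8.40 and 8.58 in GRflox libraries. Its difference of 0.16 (SE 0.118) was 0.05 without corneaGRKO replicate 1, and the other 3 corneaGRKO libraries lay inside the GRflox range.

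Parp14, Parp9 and Dtx3l are neighbours on chromosome 16, and Parp14 had the largest difference of the ADP-ribosylation genes. Parp14 (Entrez gene 547253), known in mice as a cofactor of STAT6, had 11.32, 11.39, 11.30 and 11.41 in corneaGRKO libraries, against 10.85, 10.77, 11.04 and 10.80 in GRflox libraries. The groups were 0.265 apart at their nearest, and the difference was 0.49 (SE 0.0576), or 1.41-fold. Parp9 (Entrez gene 80285) had 12.00, 11.97, 11.94 and 11.94 in corneaGRKO libraries, against 11.66, 11.63, 11.86 and 11.61 in GRflox libraries, a difference of 0.27 (SE 0.0528) without overlap. Dtx3l, its partner (Entrez gene 209200), had 11.98, 12.11, 12.05 and 12.09 in corneaGRKO libraries, against 11.81, 11.81, 12.03 and 11.84 in GRflox libraries. Dtx3l differed by 0.18 (SE 0.0535), and GRflox replicate 4 lay above the lowest corneaGRKO library. Against Dtx3l, Parp14 stood at a log2 ratio of -0.70 ± 0.0379 in corneaGRKO libraries and -1.01 ± 0.0447 in GRflox libraries (SD, n = 4 each), without overlap. For Parp9 against Dtx3l the ratio was 0.01, -0.14, -0.11 and -0.14 in corneaGRKO libraries and -0.14, -0.18, -0.17 and -0.23 in GRflox libraries, and these groups met. Parp9 and Dtx3l lie on opposite strands and share 458 exon bases (9.4% of those of Parp9 and 8% of those of Dtx3l) in GENCODE M21. Whether counting used strand is not given in the sources used here, so reads of this shared stretch cannot be assigned to either gene. Exon bases shared with other annotated genes were 13.7% of Herc6, 4.8% of Parp10, 4.44% of Usp18, 3.48% of Uba7 and 1.18% of Parp14, and reads there may be shared too. Hspbap1, the nearest coding gene on the side of Parp14, differed by -0.17 (SE 0.0381, limma adjusted p = 0.0533), and Kpna1, on the side of Parp9, by -0.04 (SE 0.0369, adjusted p = 0.639).

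Parp10 and Parp12 had small differences. Parp10 (Entrez gene 671535, chromosome 15) had 9.97, 9.96, 9.87 and 9.90 in corneaGRKO libraries, against 9.85, 9.82, 9.79 and 9.73 in GRflox libraries. Its groups did not overlap, but were only 0.0223 apart, with a difference of 0.13 (SE 0.0404). Parp12 (Entrez gene 243771, chromosome 6) had 11.94, 11.81, 11.68 and 11.80 in corneaGRKO libraries, against 11.68, 11.70, 11.62 and 11.60 in GRflox libraries. Its groups overlapped at corneaGRKO replicate 4, and the difference was 0.15 (SE 0.0532), or 1.11-fold.

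**Figure D2:**
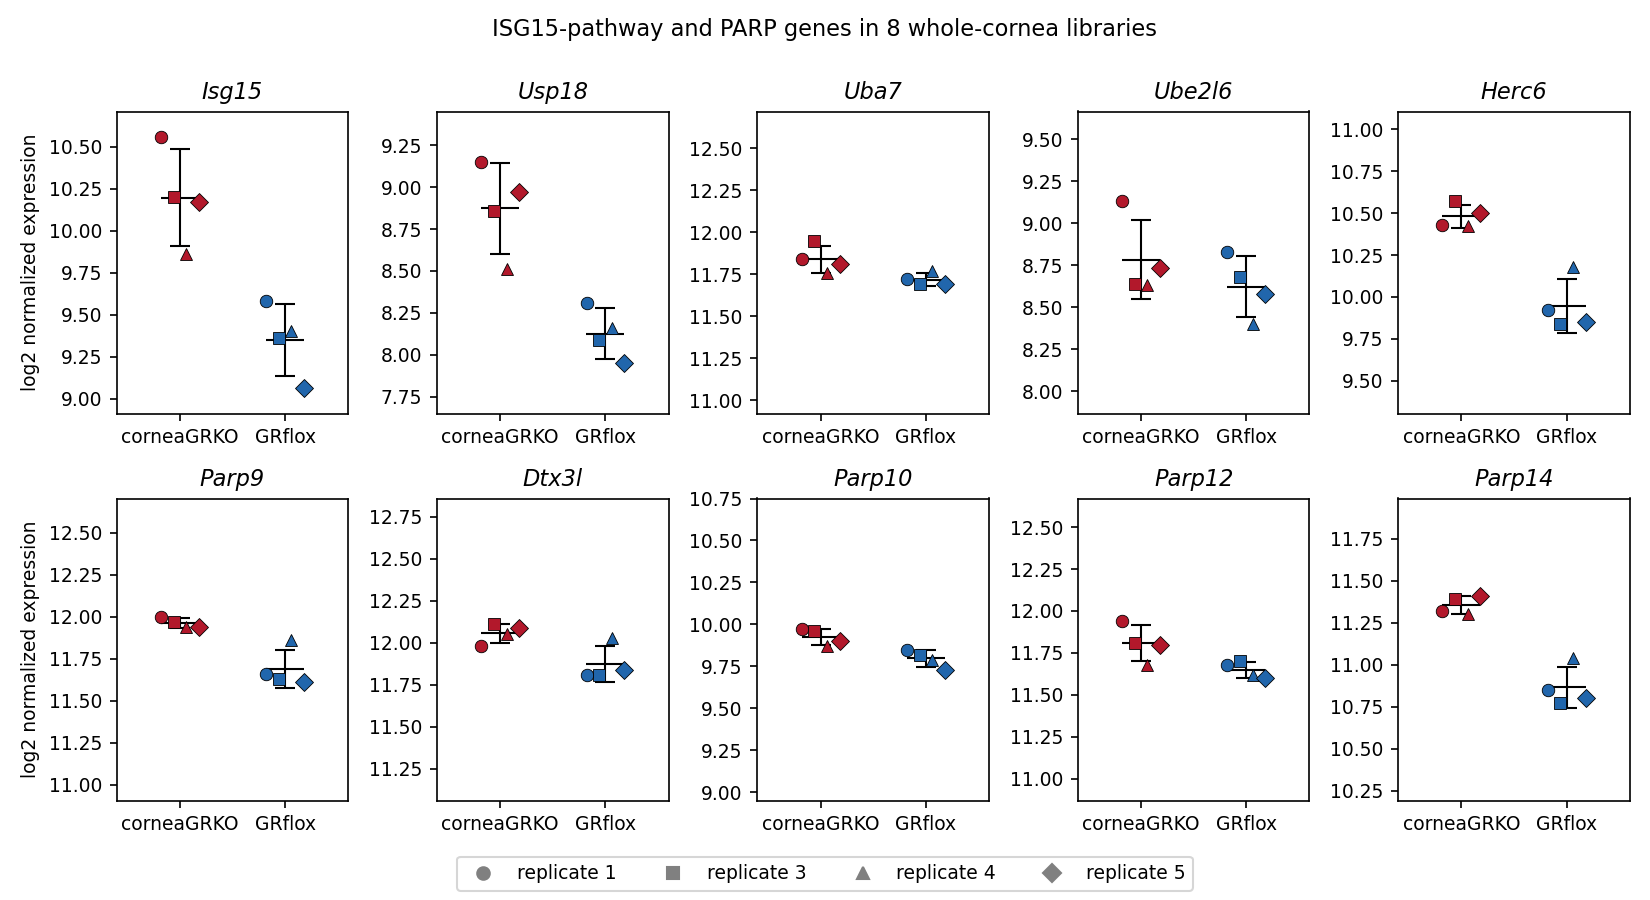
Log2 normalized expression (y axis, the same span of 1.8 in every panel) of the 10 genes in 4 corneaGRKO libraries (red, left) and 4 GRflox libraries (blue, right); marker shapes give the replicate number, the long bar is the mean and the whiskers the SD. Isg15, Usp18, Herc6, Parp14, Parp9 and Parp10 have all corneaGRKO libraries above all GRflox libraries, while Uba7, Ube2l6, Dtx3l and Parp12 overlap.

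As a count, 10 of 10 genes had a positive difference, against 45.3% of all 13269 entries tested, and their median log2 difference was 0.23, against -0.00867 over all entries tested. In 6 of 10 all corneaGRKO libraries lay above all GRflox libraries, as they did in 5.89% of entries tested. Isg15, Usp18, Herc6, Parp9 and Parp14 passed the limma adjusted p of 0.05 (5 of 10), as did 1.85% of all entries (1.33% as higher and 0.52% as lower). Since the genes were chosen with this contrast known, nothing is read from these shares. The count was 2 without corneaGRKO replicate 3, GRflox replicate 3 or GRflox replicate 5 and 3 without corneaGRKO replicate 5. Over all 13269 entries, calls in these fits numbered 83, 114, 68 and 137 in that order, against 245 with every library. With library weights it was 9, where 14.9% of all entries passed. Herc6 and Parp14 were past the threshold without any 1 of the 8 libraries. Without corneaGRKO replicate 4 the count was 5, where 248 of all 13269 entries passed, and the median difference was 0.25. That library had the highest retinal and conjunctival levels. Conjunctival sums of the other corneaGRKO libraries (15.83 to 15.95) also lay above the GRflox range (15.29 to 15.65). The part of these tissues was thus not tested by leaving it out. CorneaGRKO replicate 4 had the lowest value of the 4 corneaGRKO libraries in 9 of the 10 genes, all but Dtx3l.

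Leukocyte markers were also partly higher in corneaGRKO corneas. Of 9 tested macrophage and leukocyte markers 4 rose, as did 1.33% of all entries tested. The summed level of the 9 markers was 13.38, 13.59, 13.67 and 13.57 in corneaGRKO replicates 1, 3, 4 and 5, against 13.35, 13.46, 13.56 and 13.34 in the GRflox libraries. None of the 9 was listed at 0. Itgam made up most of this sum, at 13.11, 13.34, 13.39 and 13.32 in corneaGRKO libraries and 13.10, 13.22, 13.35 and 13.09 in GRflox libraries, and it was not among the 4 that rose (difference 0.10, SE 0.0729, limma adjusted p = 0.510). Those were Ptprc (0.34, SE 0.0704), Csf1r (0.40, SE 0.0816), Cx3cr1 (0.26, SE 0.056) and Mrc1 (0.44, SE 0.0913). Among corneaGRKO libraries the sum was highest in replicate 4, where 9 of the 10 ISG15 and PARP genes were lowest. Among GRflox libraries it was highest in replicate 4 as well, where Uba7, Herc6, Parp9, Dtx3l and Parp14 were highest. T and NK cell markers were near the floor, with 0 of 6 above the minimum for testing and sums of 3.08 to 3.12 in corneaGRKO libraries and 3.08 to 3.09 in GRflox libraries. Markers of plasmacytoid dendritic cells, strong producers of interferon, summed to 9.31 to 9.52 in corneaGRKO libraries and 9.18 to 9.30 in GRflox libraries, mainly from Runx2 and Ccr9. Siglech, their defining surface gene, stood at a mean of 3.13 in GRflox libraries, below the minimum for testing. The part of these cells in the differences of the 10 genes was not tested.

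Within the groups the 10 genes followed 2 patterns over the libraries. Uba7, Herc6, Parp9, Dtx3l and Parp14 were highest in replicate 4 among the GRflox libraries, and Isg15, Usp18, Ube2l6, Parp10 and Parp12 were not. This division was made after the values were seen. After subtraction of each group's mean, the 5 genes around Isg15 averaged 0.234 in corneaGRKO replicate 1 and -0.209 in corneaGRKO replicate 4, and 0.139 in GRflox replicate 1 and -0.125 in GRflox replicate 5. By contrast, the 5 genes around Herc6 averaged -0.024 and -0.046 in those corneaGRKO libraries, and their widest deviation was 0.156 in GRflox replicate 4. Pearson's r of the deviations over the 8 libraries ran from 0.60 to 0.95 for the 10 pairs within the Isg15 set and from 0.52 to 0.97 for the 10 pairs within the Herc6 set. Between the sets it ran from -0.79 to 0.53 (25 pairs, median 0.09). These r values describe 8 libraries and carry no test. The sets were formed from the same values, so higher r within than between them is partly built in. For single pairs, r was 0.949 for the modifier and its protease, 0.970 for the ligase and Parp14, and -0.526 for the ligase and the conjugating enzyme.

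Transcript lengths of the sets overlapped only through Uba7 of the Herc6 set, and the relation of length to the patterns was not tested over the 10 genes. The Isg15 set had transcripts of 756 (Isg15), 1771 (Usp18), 1560 (Ube2l6), 3367 (Parp10) and 3231 nt (Parp12). Those of the Herc6 set were 3195 (Uba7), 4767 (Herc6), 3548 (Parp9), 5309 (Dtx3l) and 7417 nt (Parp14). Over all tested entries, transcripts of 5000 nt or more deviated by a median of 0.049 in GRflox replicate 4, where those under 1500 nt deviated by -0.081. Transcripts of 3000 to 5000 nt are the class of Parp10, Parp12, Uba7, Herc6 and Parp9. This class deviated by a median of -0.02 in corneaGRKO replicate 1 and -0.012 in GRflox replicate 1, where Parp10 and Parp12 lay above their group means. In GRflox replicate 4, where Uba7, Herc6 and Parp9 lay above their group means, its median was 0.026. After removal of a trend on length and GC content from each library, an alternative added after seeing the data, r within the sets was 0.58 to 0.93 and 0.60 to 0.95. Between the sets it was -0.50 to 0.77 (median 0.37), so the sets stood less far apart. The group differences moved little with it: Isg15 stood at 0.87, Usp18 at 0.76, Herc6 at 0.49 and Parp14 at 0.46, and 5 of 10 were called.

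**Figure D3:**
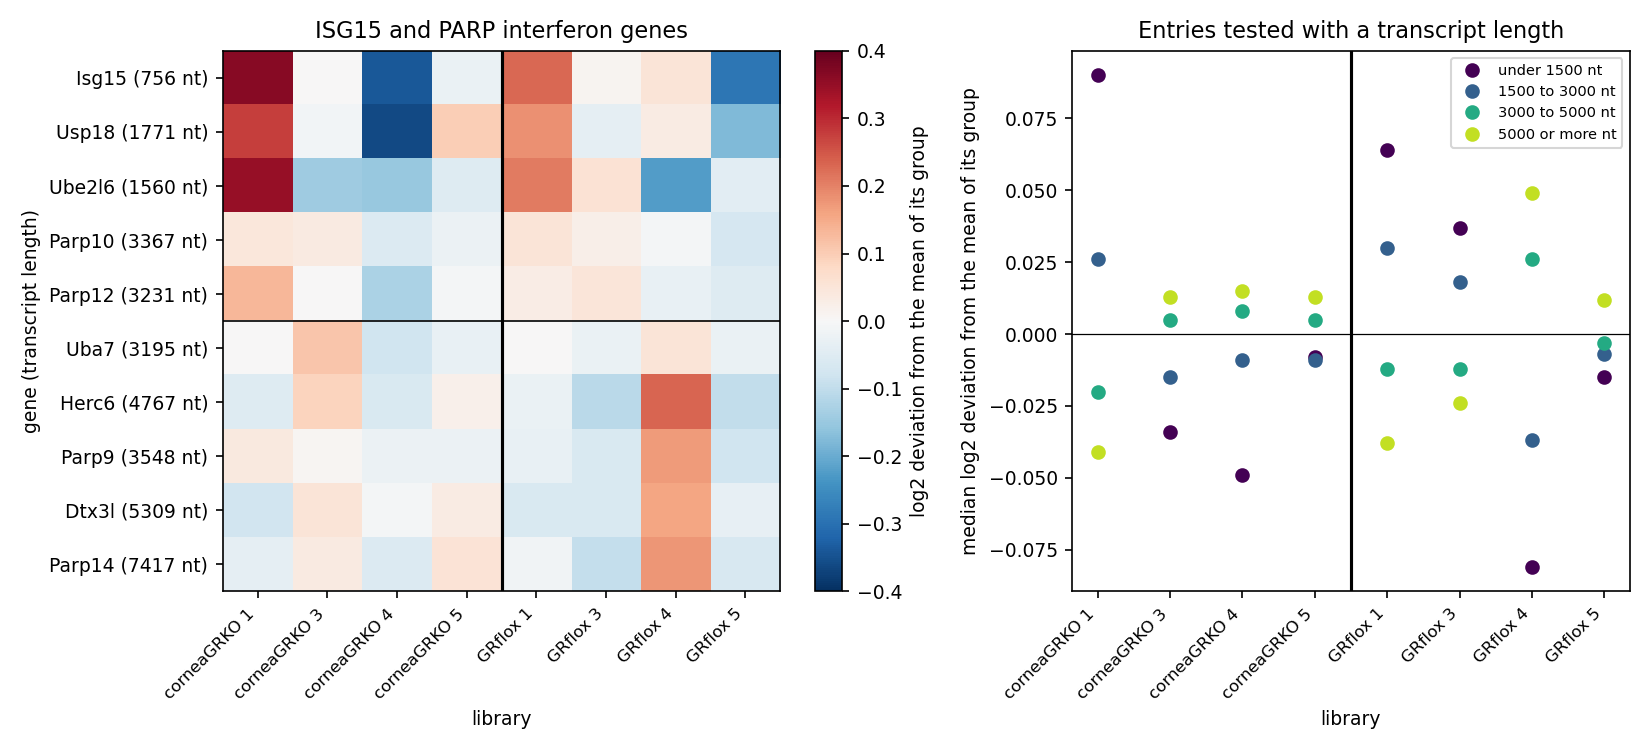
Left: log2 deviation of each gene (rows, with transcript length in nt) from the mean of its own group in each library (columns, corneaGRKO then GRflox), red above and blue below. Right: median deviation of tested entries in 4 classes of transcript length in the same libraries. The upper 5 genes are high in corneaGRKO replicate 1 and low in replicate 4, the lower 5 are high in GRflox replicate 4, and short transcripts are high in replicate 1 of both groups.

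Among all other named genes tested, those most like the mean of the 10 genes in these within-group deviations were Pom121, a nuclear pore gene (r = 0.991 over 8 libraries), Trank1 (0.989), Dhx58 (0.982), Mta2, a subunit of a chromatin remodelling complex (0.980), and Zbp1 (0.979). Leaving out the 2 libraries farthest from the median gave r of 0.977, 0.981, 0.945, 0.957 and 0.947 for Pom121, Trank1, Dhx58, Mta2 and Zbp1. The 5 genes were picked as the highest r among all named genes in these same libraries. High values are therefore built in, also with 2 libraries left out, and support nothing. The mean of the 10 genes also blends the 2 patterns described above. Group means were removed before this ranking, so likeness says nothing of a difference between groups, and these 5 genes parted in that respect. Dhx58, which encodes the RIG-I-like receptor LGP2, had 9.95, 9.77, 9.53 and 9.80 in corneaGRKO libraries, against 9.18, 9.0, 9.25 and 8.92 in GRflox libraries, and rose by 0.67 (SE 0.0947, limma adjusted p = 0.00878). Zbp1, which senses nucleic acid in the Z form, rose by 0.98 (SE 0.147, adjusted p = 0.0111). Pom121 (-0.03, adjusted p = 0.702), Trank1 (-0.05, 0.747) and Mta2 (0.01, 0.861) did not pass the limma test.

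Irf9 and Stat2, whose products act at the ISRE, rose. Irf9 had 11.26, 11.12, 10.90 and 11.10 in corneaGRKO libraries, against 10.70, 10.42, 10.59 and 10.25 in GRflox libraries, and rose by 0.61 (SE 0.0983, limma adjusted p = 0.0151). Stat2 had 11.11, 11.09, 10.97 and 11.13 in corneaGRKO libraries, against 10.70, 10.58, 10.84 and 10.57 in GRflox libraries, and rose by 0.40 (SE 0.0618, limma adjusted p = 0.0116). For both genes all corneaGRKO libraries lay above all GRflox libraries. These were 2 of 16 tested interferon signalling genes, where 1.85% of all entries tested passed. In this list 0 were lower, 5 had an unadjusted p under 0.05 (16.5% of all entries) and the median difference was 0.07. The receptor genes Ifnar1 (0.05, SE 0.0362) and Ifnar2 (0.13, SE 0.0441), the kinase genes Jak1 (0.01, SE 0.0453) and Tyk2 (-0.03, SE 0.0448) and Irf7 (0.37, SE 0.0987, adjusted p = 0.0938) did not pass the limma test, although Irf7 had an adjusted p of 0.0283 without corneaGRKO replicate 4. The count was 0 without corneaGRKO replicate 3 and 1 without GRflox replicate 3 or 5. Calls over all 13269 entries fell from 245 to 83, 114 and 68 in those fits. None of the interferon ligand genes listed reached the minimum for testing. Of 19 interferon ligand genes in the table, 14 were listed at 0 in every library, among them Ifng and Ifnk, and Ifnb1 stood at -2.58 to -2.59 in corneaGRKO libraries and at -2.59 in all GRflox libraries.

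Other genes of the ISG15 pathway did not pass the test. Of 8 tested genes that encode further ISG15 ligases, proteases that can remove ISG15, regulators of USP18 or the receptor of free ISG15, 0 passed in limma. Over all entries tested 1.85% passed, so few calls are looked for in a list of 8. At an unadjusted p under 0.05 there were 3, where 16.5% of all entries were. With library weights 3 had an adjusted p under 0.05, where 14.9% of all entries did. The median difference of the 8 genes was 0.01. Trim25, an ISG15 ligase that also acts on RIG-I, had 13.06, 13.03, 12.99 and 13.04 in corneaGRKO libraries, against 12.80, 12.89, 13.00 and 12.86 in GRflox libraries (difference 0.14, SE 0.0453, limma adjusted p = 0.147). Without GRflox replicate 4 its adjusted p was 0.0472, and with any other library left out it was 0.155 to 0.327. Itgb2, a leukocyte integrin chain and part of the receptor of free ISG15, had a difference of 0.20 (SE 0.0622, adjusted p = 0.137). Its adjusted p was 0.0222 without corneaGRKO replicate 1, where calls over all entries rose from 245 to 574. With any other library left out it was 0.143 to 0.317. The ubiquitin-specific protease gene Usp5 had a difference of -0.10 (SE 0.0372, adjusted p = 0.199), with all corneaGRKO libraries below all GRflox libraries, which 10.5% of entries showed in either direction.

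Modifiers and enzymes of the parallel pathways, among them ubiquitin, SUMO, NEDD8 and UFM1, held 0 of 37 tested genes past the limma threshold (2 at an unadjusted p under 0.05, and 1 with library weights). Over all entries tested these shares were 1.85%, 16.5% and 14.9%. The differences of the 37 genes ran from -0.19 to 0.10 with a median of -0.04. Ube2l3, the nearest relative of Ube2l6, had 11.50, 11.56, 11.53 and 11.53 in corneaGRKO libraries and 11.53, 11.50, 11.53 and 11.53 in GRflox libraries, a difference of 0.00 (SE 0.0308, limma adjusted p = 0.953). Uba1, the main E1 of ubiquitin, had a difference of -0.03 (SE 0.0411, adjusted p = 0.734) and Uba6 of 0.06 (SE 0.071, adjusted p = 0.673), which was 0.01 without GRflox replicate 3 and 0.12 without GRflox replicate 4. Relatives of the ligase gene were Herc3 at -0.13 (SE 0.0541, adjusted p = 0.259; -0.08 without corneaGRKO replicate 4) and Herc4 at 0.01 (SE 0.0471, adjusted p = 0.927). The lowest difference was that of the ubiquitin gene Ubb, -0.19 (SE 0.0812, adjusted p = 0.283), whose coding repeats are shared with other ubiquitin genes, so that its value is uncertain. Atg10, a conjugating enzyme of autophagy, stood at -0.08 (SE 0.0399, adjusted p = 0.328). Ubd, the interferon-inducible modifier FAT10, was listed at 0 in every library.

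Of 16 other PARP and Deltex genes, 1 passed, and it was lower, where 1.85% of all entries tested passed (0.52% as lower). Parp16, which encodes an ADP-ribosyltransferase of the endoplasmic reticulum membrane, had 9.32, 9.31, 9.05 and 9.19 in corneaGRKO libraries, against 9.54, 9.55, 9.47 and 9.50 in GRflox libraries. It fell by 0.30 (SE 0.0595, limma adjusted p = 0.0391). That call was lost without corneaGRKO replicate 3 (0.0657), corneaGRKO replicate 5 (0.0907) or any 1 GRflox library (adjusted p from 0.0524 to 0.119). At an unadjusted p under 0.05 there were 5 of the 16 (16.5% of all entries tested), and the median difference of the list was 0.03. Parp1, the main poly-ADP-ribose polymerase of DNA repair, had a difference of -0.07 (SE 0.0377, adjusted p = 0.376), Parp3, which acts at DNA breaks, of 0.18 (SE 0.0619, adjusted p = 0.174) and Parp11 of -0.01 (SE 0.0393, adjusted p = 0.903). Dtx1 (0.13, SE 0.0536, adjusted p = 0.256) and Dtx3 (0.13, SE 0.0583, adjusted p = 0.302), relatives of Dtx3l, did not pass either, and both differences were 0.08 without corneaGRKO replicate 4.

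Genes that remove ADP-ribose or carry macrodomains held 0 of 10 past the limma threshold (1 at an unadjusted p under 0.05, and 1 with library weights), with a median difference of -0.02. Over all entries tested these shares were 1.85%, 16.5% and 14.9%. Adprh, a hydrolase of ADP-ribosylarginine, had 9.89, 9.75, 9.75 and 9.75 in corneaGRKO libraries, against 10.19, 10.08, 9.79 and 9.97 in GRflox libraries (difference -0.22, SE 0.0779, limma adjusted p = 0.185). Without GRflox replicate 4 its adjusted p was 0.0470, and with any other library left out it was 0.101 to 0.388. Parg, which degrades poly-ADP-ribose, had a difference of 0.06 (SE 0.0518, adjusted p = 0.550) and of 0.11 without GRflox replicate 4. Adprhl2 had a difference of -0.08 (SE 0.0627, adjusted p = 0.525), which was -0.04 without GRflox replicate 1 and -0.13 without GRflox replicate 4.

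**Figure D4:**
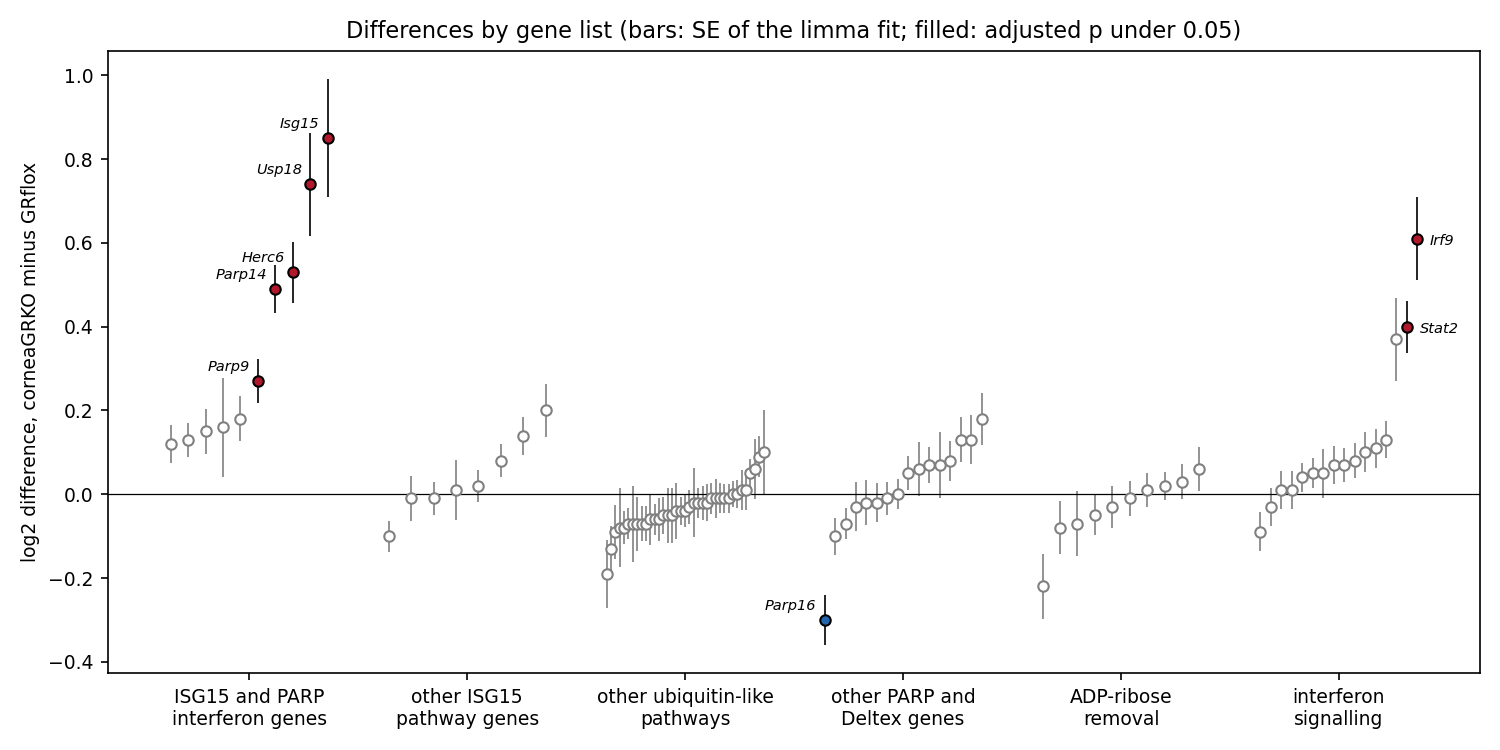
Log2 difference, corneaGRKO minus GRflox (y axis), of each tested gene in 6 lists (x axis, sorted within a list); bars are the SE of the limma fit and filled points passed an adjusted p of 0.05. The 10 genes of the first list run from 0.12 to 0.85 and were chosen with this contrast known, so their place is a description. The ISG15-pathway, ubiquitin-like, PARP and ADP-ribose lists lie between -0.30 and 0.20, a span that also holds Uba7, Ube2l6, Dtx3l, Parp10 and Parp12. Irf9 and Stat2 are the 2 filled points among interferon signalling genes.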

How the data were processed

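RNA sequencing gave the 8 libraries described, read as 75 bp pairs per the labels. The authors deposited log2 normalized expression values; Bowtie2, HTSeq and DESeq2 are named in the submitters' processing notes without roles or versions, and the transformation is not given in the sources used here. Values below 0 and an SD of GRflox libraries with a median of 0.0144 at means of 2 to 3, against 0.0679 at 10 to 11, mean that low genes may show compressed differences. The build is mm9 in the notes and mm10 in an extraction protocol, so coordinates come only from RefSeq windows of GRCm38.p6. Counts could not be used, so intervals for counting error are not given. The table held 0 columns of other samples. Groups came from sample titles. Libraries are separate pools of corneas, and p-values reflect only how such pools vary. No pair of libraries was a duplicate (smallest median absolute difference 0.0427).

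limma 3.58.1 (R 4.3.3) was fitted to entries whose mean reached 5, with group alone in the model, a trend of variance on mean, a two-sided test and Benjamini-Hochberg adjustment over 13269 entries. The SE given with each difference is that of this fit. The fit was tested on simulated data with known changes. Summed marker levels are log2 of summed linear values. The members, the gene lists and the rule for named genes were chosen with earlier results of these data known. The rule names the 10 genes, Nr3c1, from every list the 3 lowest adjusted p-values, relatives of the 10 genes, Stat2 and Irf9, and the 5 genes most like the 10. Ifnar1, Ifnar2, Jak1, Tyk2, Hspbap1, Kpna1, Krt12, other marker genes, Siglech, Runx2, Ccr9, Ubd and the ligand genes fall outside it and were named after their values were seen. Labels give no batch. A few genes of the rule or lists are not reported here and enter no list count or marker sum. Alternatives were the replicate number as a block, other filters, scalings and limma settings, each library left out, and a length and GC correction.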

Additional observations from a re-analysis of the deposited data

Results flagged for a closer look

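Of 76 groups of 4 libraries checked, 3 held a library far from the other 3, and chance alone gives about 3.8. None of the 10 ISG15 and PARP genes was among them. Adprh was highest in corneaGRKO replicate 1 at 9.89, with the other corneaGRKO libraries at 9.75. Usp5 was highest in GRflox replicate 1 at 11.88, with the other GRflox libraries at 11.82 to 11.83. Ube2l3 was lowest in GRflox replicate 3 at 11.50, with the others at 11.53.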

How the results depend on the processing

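The median difference of the 10 genes ran from 0.21 to 0.28 over all 18 alternatives, within the spread between libraries. Entries past the threshold numbered 245, and 663 with the replicate number as a block, 1980 with library weights, 372 with the length and GC trend removed and from 68 (without GRflox replicate 5) to 574 (without corneaGRKO replicate 1) with 1 library left out. Calls among the 10 genes numbered 9 with library weights and 2 to 6 with 1 library left out, and 5 under the other alternatives, the replicate block included. With library weights 3 other ISG15-pathway, 1 ubiquitin-like, 3 other PARP and Deltex, 1 ADP-ribose removal and 4 interferon signalling genes passed, and with the replicate block 1 ubiquitin-like gene (Ubb). With 1 library left out the ranges were 0 to 1, 0, 0 to 2, 0 to 1 and 0 to 3 in these lists. Deviations of same-numbered libraries correlated over entries at 0.514, -0.284, 0.259 and 0.061, and those of differently numbered libraries at -0.526 to 0.308. These values do not settle whether the replicate numbers pair the libraries. Differences near 0 changed sign: Ube2l3 (-0.00493 without corneaGRKO replicate 3, -0.00422 without GRflox replicate 3, -0.01 with the trend removed), Herc4 (-0.00161 without corneaGRKO replicate 4, -0.02 and -0.00141 without GRflox replicates 1 and 3, -0.01 with the trend removed, and up to 0.05 without GRflox replicate 4), Parp11 (0.00253 with weights, 0.01 without corneaGRKO replicate 4, 0.00378 without GRflox replicate 5, and down to -0.03 without corneaGRKO replicate 3) and Trank1 (0.01 without corneaGRKO replicate 4, and down to -0.1 without corneaGRKO replicate 1). The cause was not tested. Stat2 and Irf9 missed the threshold without corneaGRKO replicate 3 (limma adjusted p = 0.0513 and 0.0623). The weights come from the same libraries, so their p-values may be too small.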
